A study of Mus musculus with 6 samples.

Results

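The 10 genes Dll1, Dll4, Jag1, Jag2, Notch1, Notch4, Hey1, Heyl, Hes1 and Nrarp make up the Notch ligands, receptors and targets described here, and every probe set annotated to 1 of these symbols alone was taken. These were 20 probe sets of the 45037 measured, and they represent 10 of the 18193 genes with a probe set of their own. The arrays held RNA of lung endothelial cells (ECs) from NSG mice, a strain without mature lymphocytes or natural killer cells that keeps macrophages. All mice, aged 6 to 8 weeks, carried lung metastases after tail vein injection of MDA-MB-231-LM2 cells, which derive from human breast cancer and readily colonize lung. One group of 3 samples came from mice given clodronate-liposomes, which kill phagocytes that take them up, and the other group of 3 samples from mice given PBS-liposomes as control. Liposomes were injected on days 14, 16 and 18 after the cancer cells, and lungs were taken on day 20, the time point that the labels name 3 weeks. Cells were sorted as CD31+ from whole lungs after negative selection against CD45, EpCAM, CD140b and other surface proteins, so ECs next to metastases and ECs of unaffected lung were measured together. The labels call the samples biological replicates without giving the number of mice in each, and the p-values below measure the spread between these samples. A probe set is a group of short array probes that together report one transcript, and all values are log2 signals, on which a difference of 1 is a factor of 2.

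Notch receptors on one cell are activated by Delta-like and Jagged ligands on a neighboring cell. Proteases then release the intracellular part of the receptor, which enters the nucleus, binds the DNA-binding protein Rbpj and switches on target genes, among them the Hes and Hey repressors. In blood vessels this exchange restrains sprouting by cells next to a tip cell and maintains the arterial state, and Dll4, Jag1, Notch1 and Notch4 are the members best known from endothelium. In bulk RNA, fewer cells of a type and less RNA per cell cannot be told apart.

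RefSeq windows of 250 bases upstream of the annotated start (GRCm38.p6) were found for 7 of the 10 genes, in 8 windows. Jag1, Dll4 and Nrarp are shown because Jag1 held the only probe set whose groups separated and because all 3 carry a letter match to a motif of Hes and Hey proteins, the pathway's own repressors. Capitals mark CACGCG (read on either strand, so also CGCGTG), known as the class C site, or CACGTG, the E-box. All sequences run 5′ to 3′ on the strand of the gene, and no capital run overlaps another.
Jag1, chr2:137116521-137116770, minus strand: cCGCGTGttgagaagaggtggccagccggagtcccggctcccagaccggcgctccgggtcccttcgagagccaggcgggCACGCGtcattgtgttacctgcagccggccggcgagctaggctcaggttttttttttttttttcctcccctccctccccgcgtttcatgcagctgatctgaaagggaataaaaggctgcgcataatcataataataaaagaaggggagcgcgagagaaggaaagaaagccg
Dll4, chr2:119325534-119325783, plus strand: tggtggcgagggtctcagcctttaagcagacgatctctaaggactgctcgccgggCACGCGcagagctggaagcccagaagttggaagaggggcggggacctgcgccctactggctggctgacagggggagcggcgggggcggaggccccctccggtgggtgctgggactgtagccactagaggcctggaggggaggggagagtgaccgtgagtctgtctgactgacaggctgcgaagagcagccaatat
Nrarp, chr2:25180508-25180757, plus strand: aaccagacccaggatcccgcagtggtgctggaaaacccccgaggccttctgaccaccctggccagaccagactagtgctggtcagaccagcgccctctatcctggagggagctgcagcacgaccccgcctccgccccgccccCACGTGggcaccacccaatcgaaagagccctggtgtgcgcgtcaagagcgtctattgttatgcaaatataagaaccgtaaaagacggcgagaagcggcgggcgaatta

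CACGCG was present upstream of 3 of the 7 genes (Dll4, Jag1 and 1 of 2 windows of Dll1), and in 7.62% of all 32851 windows of this length. CACGTG was present upstream of Nrarp alone among the 7, and in 6.02% of all windows. The Rbpj core motif TGGGAA, searched on both strands, had no match in the 8 windows, against 21.6% of all windows. These matches describe letters in a window and were not read as bound sites. The Jag1 and Dll4 windows had 57.2% and 65.6% G or C, where the median of all windows was 52.4%.

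After clodronate-liposome treatment, no Notch ligand, receptor or target differed from PBS-liposome ECs past the threshold. By limma with Benjamini-Hochberg adjustment over all 45037 probe sets, 0 of the 20 probe sets had an adjusted p under 0.05, where 0.306% of all probe sets did. At an unadjusted p under 0.05, 1 of the 20 was called, a probe set of Jag1 with a higher signal in clodronate-liposome ECs, where 10.8% of all probe sets were called, 5.53% higher and 5.27% lower. The same Jag1 probe set was the only one whose groups did not overlap, higher in all clodronate-liposome arrays, where 7.97% of all probe sets were separated in this direction and 8.04% in the other. Of the 20 differences 11 were above 0 and 9 below. Over the brightest probe set of each gene, the median difference was -0.02 on the log2 scale, beside -0.0031 over all 18193 genes, and the median size without sign was 0.11 for the 10 genes and 0.10 for all genes. The 95% intervals of these 10 differences lay between -0.59 and 0.52 and all included 0. Of the 20 probe sets 17 had a mean signal above the median of all probe sets, and the 3 dimmer ones belong to Notch4 and Heyl.

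**Figure D1:**
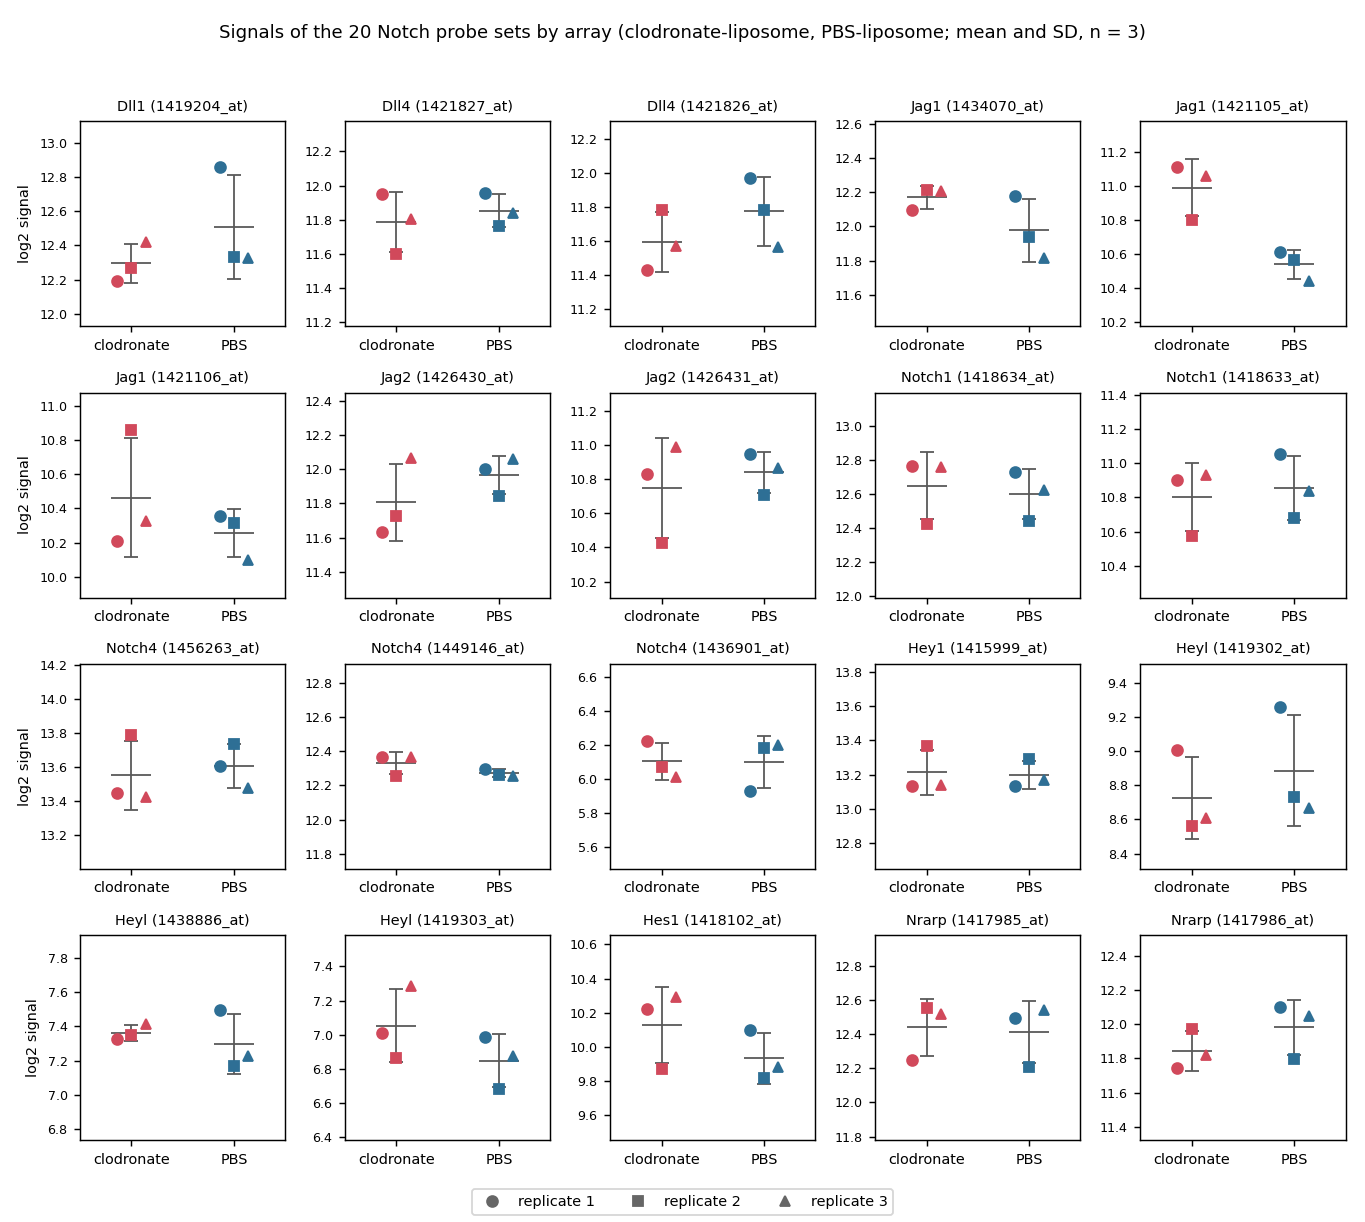
Log2 signal (y axis, each panel 1.2 log2 units high) of the 20 probe sets in the clodronate-liposome arrays (red, left) and the PBS-liposome arrays (blue, right), with symbols for the replicates and bars for the mean and SD (n = 3). Groups overlap in every panel but that of Jag1 probe set 1421105_at.

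Among the ligands, Jag1 (chr2:137081451-137116520), a Jagged ligand that activates Notch in vessel wall and endothelium, had the highest differences. Its brightest probe set, 1434070_at, read log2 signals of 12.09, 12.21 and 12.21 in clodronate-liposome ECs, against 12.18, 11.94 and 11.82 in PBS-liposome ECs. The first PBS-liposome array lay among the clodronate-liposome values, and the difference was 0.20 (SE 0.12, adjusted p = 0.623). Probe set 1421105_at read 11.11, 10.80 and 11.05 in clodronate-liposome ECs, against 10.61, 10.57 and 10.44 in PBS-liposome ECs. Here the lowest clodronate-liposome array was above the highest PBS-liposome array. The difference was 0.45 (SE 0.12), a 1.36-fold higher signal with a 95% interval of 1.14 to 1.64, at an unadjusted p of 0.00466 that became 0.195 after adjustment in limma. An exact two-sided permutation test over the arrays gave p = 0.1, the smallest that 3 against 3 allows. With 1 array left out, this difference ran from 0.39 to 0.54 and the limma adjusted p from 0.124 to 0.456. The third probe set, 1421106_at, read 10.21, 10.86 and 10.32 in clodronate-liposome ECs, against 10.36, 10.32 and 10.10 in PBS-liposome ECs. Its difference of 0.21 (SE 0.18) came from the second clodronate-liposome array, and without that array it was 0.01. All 3 Jag1 probe sets thus had differences above 0, of which none passed the adjusted threshold.

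Dll4 (chr2:119325784-119335666), the Delta-like ligand that tip cells present to their neighbors, had 2 probe sets. Probe set 1421827_at read 11.95, 11.60 and 11.81 in clodronate-liposome ECs, against 11.96, 11.77 and 11.84 in PBS-liposome ECs, a difference of -0.07 (SE 0.12, adjusted p = 0.895). Probe set 1421826_at read 11.43, 11.78 and 11.57 in clodronate-liposome ECs, against 11.97, 11.78 and 11.57 in PBS-liposome ECs, a difference of -0.18 (SE 0.14, adjusted p = 0.727). The groups shared most of their range in both, and the low value of the second probe set lay in the first clodronate-liposome array, which in the first probe set was the highest of its group.

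Dll1 (chr17:15367354-15376932), a Delta-like ligand with a role in fetal arteries, read 12.19, 12.27 and 12.42 in clodronate-liposome ECs, against 12.86, 12.33 and 12.33 in PBS-liposome ECs. The difference was -0.21 (SE 0.16, adjusted p = 0.710), the lowest of the 20. It rested on the first PBS-liposome array: without that array the difference was -0.04. Jag2 (chr12:112907803-112929812), the second Jagged ligand, read 11.64, 11.73 and 12.06 in clodronate-liposome ECs, against 12.00, 11.84 and 12.06 in PBS-liposome ECs at its brightest probe set, 1426430_at. Its difference was -0.16 (SE 0.13, adjusted p = 0.753), and that of probe set 1426431_at was -0.09 (SE 0.16). At 1426430_at replicate 3 was the highest array of each group, and both read 12.06.

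The 5 receptor probe sets had differences between -0.05 and 0.06. Notch1 (chr2:26457902-26503822), the main endothelial receptor for Dll4, read 12.76, 12.42 and 12.76 in clodronate-liposome ECs, against 12.73, 12.44 and 12.62 in PBS-liposome ECs at probe set 1418634_at. The difference was 0.05 (SE 0.13, adjusted p = 0.941), and in both groups the second replicate was the lowest. Probe set 1418633_at also had the second replicate lowest in both groups, and a difference of -0.05 (SE 0.14), so the sign for Notch1 was not settled.

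Notch4 (chr17:34564286-34588543), a receptor found mainly on endothelium, read 13.45, 13.79 and 13.42 in clodronate-liposome ECs, against 13.61, 13.73 and 13.48 in PBS-liposome ECs at probe set 1456263_at. The difference was -0.05 (SE 0.13, adjusted p = 0.936), with the second replicate highest in both groups. At probe set 1449146_at the arrays read 12.37, 12.26 and 12.37 in clodronate-liposome ECs, against 12.30, 12.26 and 12.26 in PBS-liposome ECs. It had the smallest SE of the 20 probe sets, 0.09, a difference of 0.06 and a 95% interval of -0.15 to 0.27. Probe set 1436901_at lay near 6.10 in both groups, below the median of the mean signals over all probe sets, 8.12, and differed by 0.00032.

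Of the targets, Hey1 (chr3:8663359-8667038), a repressor that Notch switches on in arterial endothelium, read 13.13, 13.36 and 13.14 in clodronate-liposome ECs, against 13.13, 13.29 and 13.17 in PBS-liposome ECs. The difference was 0.01 (SE 0.11, adjusted p = 0.981), with the second replicate again highest in both groups. Hes1 (chr16:30065357-30067796), a repressor of the same protein class, read 10.22, 9.87 and 10.29 in clodronate-liposome ECs, against 10.10, 9.82 and 9.88 in PBS-liposome ECs. Its difference of 0.19 (SE 0.14, adjusted p = 0.696) came from clodronate-liposome replicates 1 and 3, and the groups overlapped. These replicates also had the lowest signals of the spiked-in hybridization controls, and with the controls as covariate the difference was 0.00032. Whether the controls and the Hes1 difference are linked was not tested.

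Nrarp (chr2:25180758-25183339), a target that feeds back to dampen Notch signaling, read 12.25, 12.55 and 12.52 in clodronate-liposome ECs, against 12.49, 12.21 and 12.54 in PBS-liposome ECs at probe set 1417985_at. The difference was 0.03 (SE 0.13, adjusted p = 0.970). Probe set 1417986_at read 11.74, 11.97 and 11.82 in clodronate-liposome ECs, against 12.10, 11.79 and 12.05 in PBS-liposome ECs, a difference of -0.14 (SE 0.12, adjusted p = 0.763). The signs of the probe sets were opposite, and the groups overlapped in both.

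Heyl (chr4:123233556-123249870), a Hey relative enriched in smooth muscle and pericytes, read 9.00, 8.56 and 8.61 in clodronate-liposome ECs, against 9.26, 8.73 and 8.67 in PBS-liposome ECs at probe set 1419302_at. The difference was -0.16 (SE 0.19, adjusted p = 0.841), and without the first PBS-liposome array it was 0.03. The other 2 Heyl probe sets were dim, with means below 7.4 in both groups, and had differences of 0.21 (1419303_at) and 0.07 (1438886_at), both above 0. Dim probe sets show smaller changes than the RNA may have, and the 3 Heyl probe sets did not share a sign.

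**Figure D2:**
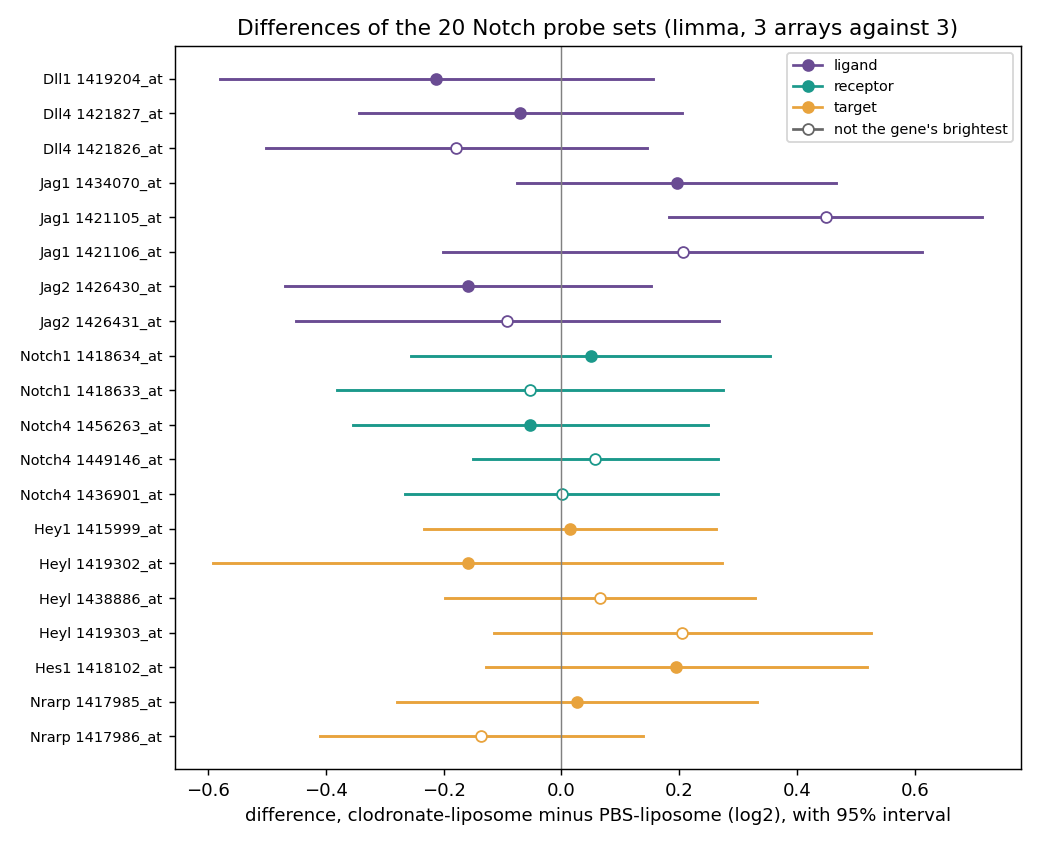
Differences between clodronate-liposome and PBS-liposome ECs on the log2 scale (x axis) for the 20 probe sets (rows), with 95% limma intervals as lines, colors for ligands, receptors and targets, and filled points for the brightest probe set of a gene. Every interval but that of Jag1 probe set 1421105_at (0.18 to 0.71) includes 0.

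The sign of a gene's difference often depended on 1 array. Jag1 and Hes1 kept values above 0 and Dll1 and Jag2 values below 0 whichever array was left out, with the Jag1 difference at 0.12 to 0.30, that of Hes1 at 0.11 to 0.32, that of Dll1 at -0.30 to -0.04 and that of Jag2 at -0.29 to -0.07. The other 6 genes took both signs.

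**Figure D3:**
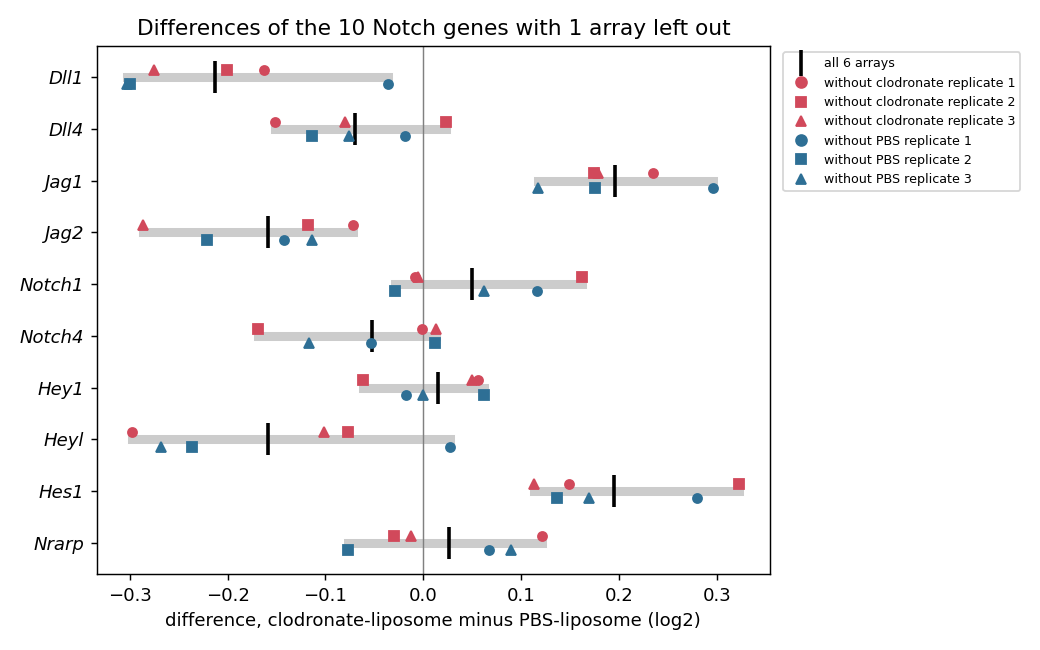
Difference between clodronate-liposome and PBS-liposome ECs on the log2 scale (x axis) at the brightest probe set of each of the 10 genes (rows), with all 6 arrays (black bar) and with 1 array left out (symbols, red for a clodronate-liposome array and blue for a PBS-liposome array). The grey range stays on one side of 0 for Dll1, Jag1, Jag2 and Hes1.

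The rest of the pathway was read from a list of 53 further genes, of which 50 had 101 probe sets of their own. None of the 101 passed the adjusted threshold in limma. At an unadjusted p under 0.05 there were 7 higher and 6 lower among the 101, where 5.53% and 5.27% of all probe sets were. The groups did not overlap for 9 of the 101 that were higher and 7 that were lower. Of all probe sets, 7.97% and 8.04% were separated in these directions. The median difference over the brightest probe sets of these 50 genes was 0.0066.

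Rbpj, the DNA-binding partner of the released receptor, had the highest differences among the nuclear genes, and its probe sets did not agree in sign. Its brightest probe set, 1454896_at, read 10.53, 10.81 and 10.64 in clodronate-liposome ECs, against 10.33, 10.47 and 10.13 in PBS-liposome ECs, a difference of 0.34 (SE 0.13, adjusted p = 0.367). Probe set 1418114_at read 8.68, 8.45 and 8.92 in clodronate-liposome ECs, against 8.32, 8.24 and 8.04 in PBS-liposome ECs, a difference of 0.48 (SE 0.14, adjusted p = 0.251). The groups did not overlap in either. The third, 1448957_at, read 9.74, 10.15 and 9.72 in clodronate-liposome ECs, against 10.09, 10.04 and 9.81 in PBS-liposome ECs, a difference of -0.11 (SE 0.14), with overlapping groups. Among corepressors, Tle3 had differences of -0.15 to -0.41 over 4 probe sets, with a lowest adjusted p of 0.387.

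Upstream of the receptor, Neurl1b, a ubiquitin ligase that promotes uptake of ligands in the sending cell, read 11.13, 11.05 and 11.20 in clodronate-liposome ECs, against 10.65, 10.59 and 11.00 in PBS-liposome ECs. Its difference was 0.38 (SE 0.13, adjusted p = 0.329), without overlap of the groups. Mib1, the main ligase of this step, had a difference of 0.18 (SE 0.11, adjusted p = 0.627). All 4 genes of the step had values above 0 at their brightest probe set, and of its 11 probe sets 8 were above 0 and 3 below. Neurl1a did not keep one sign, with 0.12 (SE 0.13) at its brightest, 1458561_at, and -0.31 (SE 0.14, adjusted p = 0.487) at 1451872_a_at. Lfng, a Fringe enzyme that adds sugar to Notch and favors Delta-like over Jagged ligands, read 10.44, 10.26 and 10.23 in clodronate-liposome ECs, against 10.70, 10.81 and 10.39 in PBS-liposome ECs. Its difference was -0.32 (SE 0.13, adjusted p = 0.429) at this probe set, 1420643_at, and the groups overlapped. The other Lfng probe set, 1449943_at, had -0.13 (SE 0.17, adjusted p = 0.849). No gene of these steps passed the adjusted threshold.

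Psen2, a catalytic subunit of the gamma-secretase that releases the receptor's intracellular part, read 10.46, 10.60 and 10.28 in clodronate-liposome ECs, against 11.05, 10.89 and 10.68 in PBS-liposome ECs. The difference was -0.42 (SE 0.13, adjusted p = 0.286), and the groups did not overlap. The protease Adam10, which makes the cut before it, had 0.0014 at its brightest probe set (1450105_at) and differences on both sides of 0 at the other probe sets. Itch, a ubiquitin ligase for Notch, had 4 probe sets above 0, of which 1459332_at had the highest difference, 0.47 (SE 0.13, adjusted p = 0.223). The brightest, 1415769_at, had 0.13 (SE 0.10), with overlapping groups. Every Itch probe set but the brightest was dim, with group means below 8.12, the median of the mean signals over all probe sets. Those of 1459332_at were 7.88 in clodronate-liposome ECs and 7.41 in PBS-liposome ECs.

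The receptors outside the 10 genes gave small values. Notch2 had a difference of 0.07 (SE 0.11, 1455556_at) and Notch3, the receptor of pericytes and smooth muscle, -0.11 (SE 0.10, 1421965_s_at). Hey2, the third Hey repressor, read 7.85, 7.58 and 7.50 in clodronate-liposome ECs, against 7.40, 7.98 and 7.70 in PBS-liposome ECs. The difference was -0.05 (SE 0.16). This probe set was dim, with both group means below 8.12, the median of the mean signals over all probe sets. Hes5 had -0.13 (SE 0.15) at its brightest probe set, 1423146_at, with overlapping groups. Its other probe set, 1456010_x_at, had -0.25 (SE 0.11, adjusted p = 0.470 in limma) without overlap of the groups. That probe set was dim, with means of 6.67 in clodronate-liposome ECs and 6.92 in PBS-liposome ECs.

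**Figure D4:**
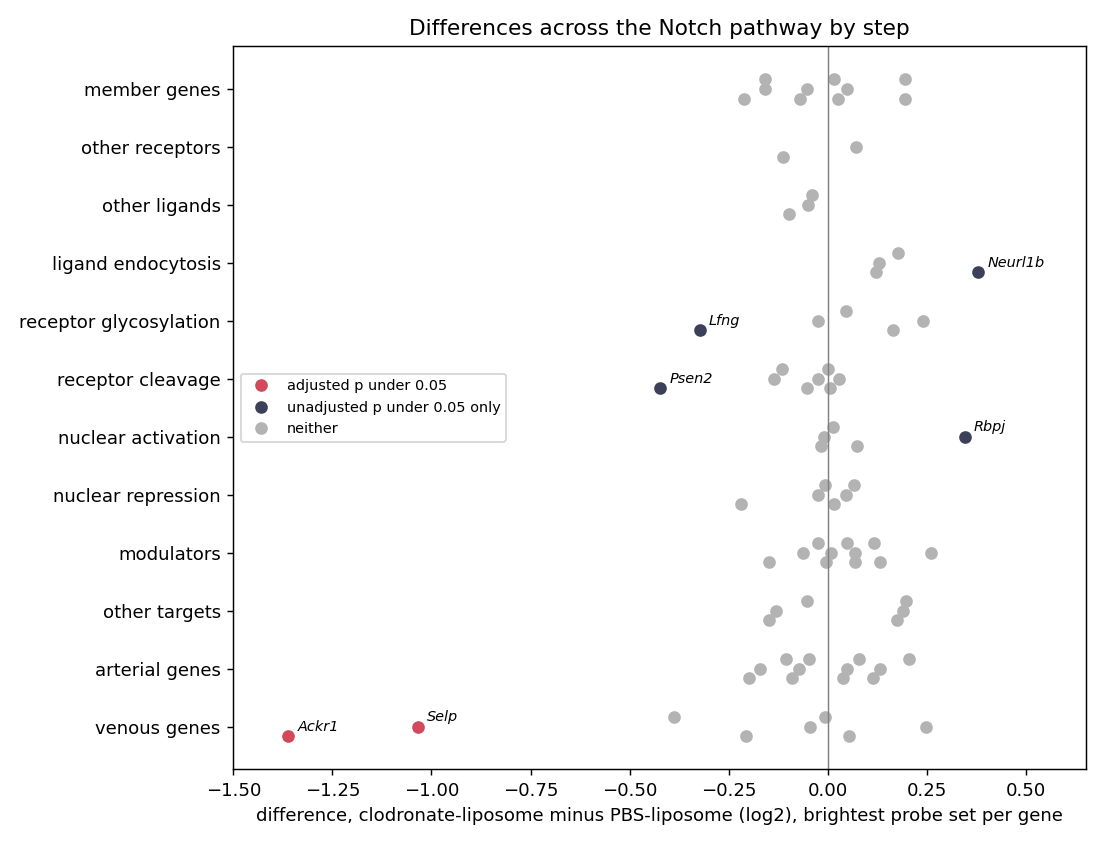
Difference between clodronate-liposome and PBS-liposome ECs on the log2 scale (x axis) at the brightest probe set of each gene, by step of the pathway (rows), with the venous and arterial lists at the bottom. Red points have a limma adjusted p under 0.05 (Ackr1 and Selp), dark points an unadjusted p under 0.05 only (Neurl1b, Lfng, Psen2 and Rbpj), and all 10 member genes are grey.

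Arterial endothelial genes, several of which Notch maintains, had no call among 12 genes with 24 probe sets. By limma, 0 of the 24 had an unadjusted p under 0.05, where 10.8% of all probe sets did. Efnb2, the arterial ephrin, read 13.12, 13.16 and 13.12 in clodronate-liposome ECs, against 13.08, 13.13 and 13.09 in PBS-liposome ECs at 1419639_at, a difference of 0.04 (SE 0.09). Gja4, an arterial connexin, read 12.33, 12.16 and 12.49 in clodronate-liposome ECs, against 12.52, 12.56 and 12.49 in PBS-liposome ECs, a difference of -0.20 (SE 0.11, adjusted p = 0.586). The mean of the list overlapped between groups, at 11.94 to 11.99 in clodronate-liposome ECs and 11.90 to 12.00 in PBS-liposome ECs.

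Of 8 venous genes, 2 passed the threshold at their brightest probe set, both lower in clodronate-liposome ECs, where 79 of all 18193 genes passed. The other 6 did not pass. The venous list was chosen with earlier results of these data known, and its share of passing genes was not tested. Ackr1, the chemokine-binding receptor of venules, read 10.01, 10.23 and 9.79 in clodronate-liposome ECs, against 11.47, 11.34 and 11.31 in PBS-liposome ECs, a difference of -1.36 (SE 0.13, adjusted p = 0.0144). Selp, which encodes P-selectin and captures leukocytes, read 10.60, 11.04 and 10.48 in clodronate-liposome ECs, against 11.73, 11.75 and 11.74 in PBS-liposome ECs at 1420558_at, a difference of -1.03 (SE 0.15, adjusted p = 0.0428). The call of Ackr1 was lost without clodronate-liposome replicate 1 or without any of the PBS-liposome arrays (adjusted p up to 0.0773), and that of Selp at 1420558_at was lost without any array but clodronate-liposome replicate 2 (up to 0.162). No probe set of the array passed with the hybridization controls as covariate or with the replicate number as a block, so both calls were lost there. Slc6a2, a noradrenaline transporter, had -0.39 (SE 0.21, adjusted p = 0.574) at its brightest probe set, 1460129_at, and -0.78 (SE 0.24, adjusted p = 0.274) at 1421641_at. Nr2f2, a regulator of venous identity that represses Notch, had -0.21 (SE 0.10, adjusted p = 0.540) at its brightest probe set, 1416159_at, and Ephb4, the venous partner of Efnb2, had -0.01 (SE 0.13). Vcam1 and Vwf had differences above 0, of 0.25 (SE 0.14, adjusted p = 0.580 in limma, 1448162_at) and 0.05 (SE 0.13). Whether venous genes differed from the Notch genes was not tested.

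The sorted cells carried the endothelial program. Pecam1, which encodes CD31, and Cdh5, the endothelial cadherin, had differences of 0.07 (SE 0.09) and 0.09 (SE 0.12, 1422047_at), and the mean over 12 pan-endothelial genes was 13.06 to 13.23 in clodronate-liposome ECs and 13.08 to 13.16 in PBS-liposome ECs. None of 14 macrophage genes (22 probe sets) and 10 pan-leukocyte genes (20 probe sets) passed in limma, and at an unadjusted p under 0.05 6 of the 22 and 7 of the 20 were lower in clodronate-liposome ECs, where 5.27% of all probe sets were. Csf1r, the receptor for macrophage growth factor, read 7.50, 7.88 and 7.74 in clodronate-liposome ECs, against 8.63, 9.46 and 8.75 in PBS-liposome ECs at 1419872_at, a difference of -1.24 (SE 0.22, adjusted p = 0.0834), and had -0.65 (SE 0.12, adjusted p = 0.101) at its brightest probe set, 1419873_s_at. Cybb, a subunit of the phagocyte oxidase, had -1.06 (SE 0.19, adjusted p = 0.0871, 1436778_at). The leukocyte genes Fcer1g, Itgb2 and Ptprc (CD45) had -0.69, -0.61 and -0.58 (adjusted p = 0.212, 0.207 and 0.217). The groups did not overlap for any of these 5 genes at the probe sets named. Separated and lower were 9 of the 22 and 7 of the 20, where 8.04% of all probe sets were. At the brightest probe sets, 11 macrophage genes were below 0 and 3 above. Those above were Fcgr1 (0.32, SE 0.21, 1417876_at), Mertk (0.07, SE 0.13) and Mrc1 (0.05, SE 0.15). Fcgr1 did not keep one sign, with -0.23 (SE 0.12, adjusted p = 0.553 in limma) at 1436625_at. Cd68 had -0.08 (SE 0.09) and Adgre1 -0.17 (SE 0.21). The macrophage mean was 8.42 to 8.52 in clodronate-liposome ECs and 8.47 to 8.80 in PBS-liposome ECs, and the leukocyte mean was 8.11 to 8.33 in clodronate-liposome ECs and 8.37 to 8.80 in PBS-liposome ECs. The groups overlapped in the macrophage mean and did not overlap in the leukocyte mean. The mean of 13 mural genes ran from 8.34 to 8.38 in clodronate-liposome ECs, against 8.38 to 8.51 in PBS-liposome ECs. The groups just overlapped, with the highest clodronate-liposome array at 8.3829 and the lowest PBS-liposome array at 8.3827. Mural genes matter for Heyl and Notch3, and the list includes Notch3 itself. The pericyte receptor gene Pdgfrb had -0.27 (SE 0.10, adjusted p = 0.369, 1436970_a_at). Kcnj8 had -0.41 (SE 0.15, adjusted p = 0.369), and the pericyte gene Rgs5 went the other way, with 0.45 (SE 0.28, adjusted p = 0.642) at its brightest probe set, 1420941_at, and 0.55 (SE 0.18, adjusted p = 0.299) at 1420942_s_at. Mesothelial genes were highest in clodronate-liposome replicate 3 (mean 8.80, against 7.19 to 7.73 elsewhere). Spiked-in hybridization controls averaged 11.91, 12.20 and 11.94 on the clodronate-liposome arrays and 12.11, 12.24 and 12.12 on the PBS-liposome arrays. With these controls as covariate the difference of Notch1 was -0.14, that of Notch4 0.13, that of Dll4 -0.22 and that of Jag1 0.21, and no member passed. The part of the other cell types in the Notch values was not tested.

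**Figure D5:**
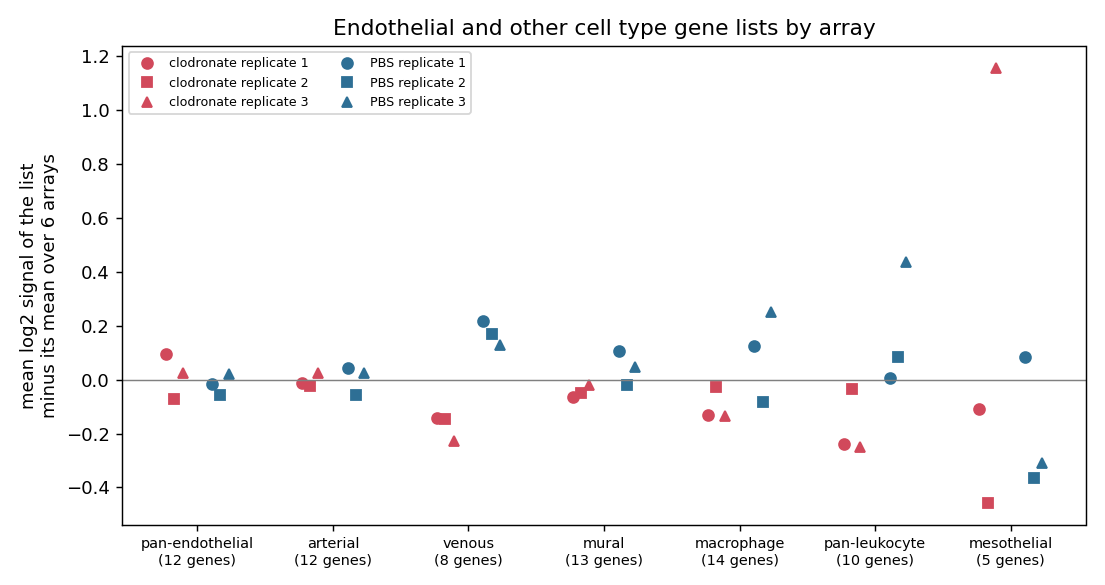
Mean log2 signal of 7 gene lists in each array minus the mean of that list over the 6 arrays (y axis), with clodronate-liposome arrays in red on the left of each list and PBS-liposome arrays in blue on the right. The means of pan-endothelial and arterial genes overlap between groups, and those of venous and pan-leukocyte genes do not. The venous list holds Ackr1 and Selp, with differences of -1.36 and -1.03. Its other genes had differences from -0.39 (Slc6a2) to 0.25 (Vcam1) at their brightest probe sets. The mesothelial list stands high in clodronate-liposome replicate 3.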

How the data were processed

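The deposited table held log2 signals of 6 Affymetrix mouse whole-genome arrays, which the authors had background-corrected, quantile-normalized and summarized per probe set by RMA in Chipster. The array's spread, not read depth, limits precision. Of 45101 rows, 64 control probe sets were set aside. Platform annotation gave 34945 of the others 1 symbol, 932 several and 9160 none. All 45037 were fitted by treatment with limma 3.58.1 (lmFit, eBayes) in R 4.3.3, p-values were two-sided and Benjamini-Hochberg adjusted over all of them, and calls needed an adjusted p under 0.05. Differences are clodronate-liposome minus PBS-liposome. A gene with several probe sets was represented by the one with the highest mean over all arrays, and all 10 genes matched RefSeq by gene ID. Levels were not compared between probe sets. The genes and lists were chosen with earlier results of these data known. All 10 genes are named. Of each further list, genes that passed and those with the lowest p could be named, up to 3 a list, besides Rbpj, Notch2, Notch3, Hey2, Efnb2, Pecam1, Cdh5 and Pdgfrb. Nr2f2, Ephb4, Vcam1, Vwf, Lyve1, Fcgr1, Mertk, Mrc1, Cd68 and Adgre1 were named after their values were seen. Other listed genes are given by counts only or not reported here. Alternatives were left-out dim probe sets, a replicate block, a second quantile step, median centring, trended variance, array weights, technical covariates, other summaries per gene and left-out arrays. The fitting code was tested on simulated data. Same-numbered replicates were checked for pairing.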

Additional observations from a re-analysis of the deposited data

How the results depend on the processing

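With 3 arrays a group, the member probe sets had SEs of 0.09 to 0.19 on the log2 scale. No member probe set passed under any of 14 alternatives (lowest adjusted p 0.10, with array weights), and the median over the 10 genes ran from -0.07 to 0.0047. The count of all probe sets past the threshold, 138, was 244 without dim probe sets, 248 with trended and robust variance, 234 with array weights, 43 with the 3' minus 5' signal as covariate and 0 with the hybridization controls as covariate (smallest adjusted p 0.0608, 4710 at an unadjusted p under 0.05), and it ran from 6 to 73 with 1 array left out. The cause was not tested. With the replicate block it was 0 by limma (smallest adjusted p 0.0507, 5033 at an unadjusted p under 0.05), and no member passed there either. The numbers were not taken to pair the samples in the main fit, and the labels do not say what they stand for. Correlations of same-numbered deviations were 0.08, 0.07 and 0.04 over all probe sets. Over the 20 member probe sets they were 0.13, 0.51 and 0.42, and over all probe sets every sample correlated best with its own number. Replicate 2 had the highest hybridization controls of each group (clodronate-liposome 12.20, PBS-liposome 12.24). It also had the lowest control signal of 18S ribosomal RNA (12.33 and 12.39). Of 160 pairs of member gene and alternative, 138 kept their sign and 22 did not, and all stayed short of the threshold. Signs turned for Hey1 with array weights (-0.0217), for Notch1 (-0.14) and Notch4 (0.13) with the hybridization controls, for Nrarp with the 3' minus 5' signal (-0.0074), for Notch1 at its most variable probe set (-0.0531), and with the mean over probe sets for Notch1 (-0.0018), Notch4 (0.0018), Heyl (0.0373) and Nrarp (-0.0547). With 1 array left out, the brightest probe sets ran from -0.152 to 0.0230 for Dll4, -0.0286 to 0.162 for Notch1, -0.169 to 0.0126 for Notch4, -0.0618 to 0.0617 for Hey1, -0.298 to 0.0273 for Heyl and -0.0769 to 0.122 for Nrarp.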

Other observations

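Vegfa and the VEGF receptor genes, which act upstream of Dll4 in sprouting vessels, had no call in limma among 4 genes with 9 probe sets. At an unadjusted p under 0.05 there was 1, where 10.8% of all probe sets were called. Flt1, the decoy receptor for VEGF, read 12.70, 12.67 and 12.73 in clodronate-liposome ECs, against 13.02, 12.90 and 12.90 in PBS-liposome ECs at 1454037_a_at. The difference was -0.24 (SE 0.09, adjusted p = 0.390 in limma), 3 of its 4 probe sets were separated and lower in clodronate-liposome ECs, where 8.04% of all probe sets were, and Kdr, the main signaling receptor, had -0.03 (SE 0.10). Of 5 lymphatic endothelial genes, Mmrn1 had a difference of 0.47 (SE 0.14, adjusted p = 0.267 in limma) and Reln 0.38 (SE 0.13, adjusted p = 0.331). Both were without overlap between the groups, the only 2 of the list's 10 probe sets, where 7.97% of all probe sets were separated and higher. Prox1 (1457432_at) and Lyve1 (1453128_at) had -0.05 and 0.03.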
